A study of Homo sapiens with 6 samples.

Results

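Kinesins are motor proteins that walk along microtubules or shorten their ends, using ATP. The human KIF genes encode motors that build and position the mitotic spindle, motors that carry vesicles, organelles and RNA through the cytoplasm, and motors that work in the cilium, the antenna-like organelle of the cell surface. RNA of most mitotic kinesins is known to rise as cells enter G2 and mitosis, whereas transport kinesins are made in dividing and resting cells alike.

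Members of the family were the genes whose symbol is KIF with a number and an optional letter A to C, or KIFC with a number. This name rule, which uses no measured value, gave 42 of the 60612 genes in the deposited table. Kinesins with other names, such as CENPE, were not members. The cells were U87, a long-established line from a human glioblastoma. All 6 cultures had received lentivirus with an shRNA: 3 libraries came from cells with a scramble shRNA (NC) and 3 from cells in which an shRNA targeted PRMT6, an enzyme that methylates arginine (shPRMT6). The study's methods call the replicates independent, and the labels give no separate clone, passage or infection for each, so the p-values measure the spread between these libraries. The shRNA that was sequenced is not named in the sources, and both groups are populations of a single line.

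The counts of a library summed to between 56388161 and 75887696. Libraries are listed in the order of their replicate number, NC before shPRMT6. PRMT6 itself had 522, 606 and 449 raw counts in NC against 227, 282 and 355 in shPRMT6, without overlap (log2 fold change of -0.87, SE 0.187, adjusted p = 0.0225, edgeR quasi-likelihood test, Benjamini-Hochberg adjusted). All adjusted p-values below come from that test over 18106 genes, and all log2 fold changes are shPRMT6 minus NC. Of the markers of the glioblastoma line, VIM (1300 FPKM in NC and 1210 in shPRMT6) and CD44 (47.8 and 44.3) were abundant. NES was at 6.18 FPKM in NC and 6.9 in shPRMT6 (adjusted p = 0.194). FN1 fell from 143 to 86.9 FPKM (log2 fold change of -0.72, adjusted p = 0.00246) and CHI3L1 rose from 0.869 to 2.71 FPKM (log2 fold change of 1.62, adjusted p = 0.00294). The markers GFAP, S100B and SOX2 were at or near 0. Of 8 markers of immune, endothelial, epithelial and nerve cells, CD3E and MOG had no counts, and the highest, PECAM1, had a mean of 0.511 FPKM in shPRMT6.

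Promoter sequences were compared among the kinesins, with no test. Promoter windows of RefSeq on GRCh38.p14, from 250 bases before to 50 bases after a RefSeq start of the gene, were found for 34 of the 42 members. They were searched on both strands for the letters TTTGAA and TTCGAA, the core of the cell cycle genes homology region (CHR) known from promoters of genes of G2 and mitosis, and for CCAAT, the letters read by the factor NF-Y. The members had 43 windows in all, and a gene was counted as holding a motif if any of its windows held it. The CHR letters were in 11 of 15 mitotic kinesins (73.3%), 1 of 12 transport kinesins (8.33%, KIF5B) and 19.5% of all 27305 genes with a window. CCAAT was in 11 of 15 mitotic kinesins (73.3%), 4 of 12 transport kinesins (33.3%) and 39.7% of all genes. Both were in 10 mitotic kinesins (66.7%), against 7.85% of all genes. The CHR letters were not in the windows of KIF20A, KIF2A, KIF2B and KIF2C, and CCAAT was not in those of KIF15, KIF2A, KIF2B and KIF2C. By RNA, the CHR letters were in 7 of the 9 mitotic kinesins called lower (adjusted p under 0.05). They were also in 4 of the 5 tested mitotic kinesins that were not called. Both motifs were in 6 and 4 of these. Of 4 cilium kinesins with a window, 1 held both motifs (25.0%, KIF24). The RefSeq start of KIF24 lies 17897 bases before the start of the gene in GENCODE.

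The windows of 8 members are printed 5′ to 3′ on the strand of the gene, with the CHR letters and CCAAT, or their reverse complements, in capitals. KIF18A and KIF18B are shown because these related motors held the same letters and had different changes in RNA. KIF11, KIF22 and KIF23 are mitotic members that hold both motifs and fell. KIF22 has another window, not printed, with the CHR letters at -244 from its start and without CCAAT. KIF2C and KIF20A were among the mitotic members with the largest falls and lack the CHR letters. KIF1C is the transport kinesin with the highest level. They lie at chr11:28108107-28108406 (KIF18A, minus strand), chr17:44947724-44948023 (KIF18B, minus strand), chr10:92592880-92593179 (KIF11, plus strand), chr16:29790501-29790800 (KIF22, plus strand), chr15:69414099-69414398 (KIF23, plus strand), chr1:44739587-44739886 (KIF2C, plus strand), chr5:138178862-138179161 (KIF20A, plus strand) and chr17:4997700-4997999 (KIF1C, plus strand).
KIF18A: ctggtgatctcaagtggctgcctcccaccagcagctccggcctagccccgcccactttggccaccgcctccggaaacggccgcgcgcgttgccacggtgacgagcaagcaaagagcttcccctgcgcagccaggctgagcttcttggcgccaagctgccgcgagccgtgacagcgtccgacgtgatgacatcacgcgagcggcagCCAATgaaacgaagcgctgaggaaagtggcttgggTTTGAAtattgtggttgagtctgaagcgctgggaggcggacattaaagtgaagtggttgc
KIF18B: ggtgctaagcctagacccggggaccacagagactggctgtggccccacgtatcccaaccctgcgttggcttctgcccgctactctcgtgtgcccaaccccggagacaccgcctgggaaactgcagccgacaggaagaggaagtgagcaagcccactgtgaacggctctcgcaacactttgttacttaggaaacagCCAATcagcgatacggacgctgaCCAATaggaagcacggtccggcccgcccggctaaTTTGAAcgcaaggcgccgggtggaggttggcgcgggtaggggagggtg
KIF11: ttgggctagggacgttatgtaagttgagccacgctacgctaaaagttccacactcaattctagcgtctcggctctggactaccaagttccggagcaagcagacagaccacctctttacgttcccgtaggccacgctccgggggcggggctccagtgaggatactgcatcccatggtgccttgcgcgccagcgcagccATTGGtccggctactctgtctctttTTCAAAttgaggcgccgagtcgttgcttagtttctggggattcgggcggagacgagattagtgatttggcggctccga
KIF22: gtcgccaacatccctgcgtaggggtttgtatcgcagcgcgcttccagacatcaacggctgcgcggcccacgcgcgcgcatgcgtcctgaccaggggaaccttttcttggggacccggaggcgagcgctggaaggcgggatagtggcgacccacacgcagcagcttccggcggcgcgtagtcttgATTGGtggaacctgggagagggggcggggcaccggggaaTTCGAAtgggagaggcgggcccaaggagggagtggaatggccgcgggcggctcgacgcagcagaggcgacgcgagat
KIF23: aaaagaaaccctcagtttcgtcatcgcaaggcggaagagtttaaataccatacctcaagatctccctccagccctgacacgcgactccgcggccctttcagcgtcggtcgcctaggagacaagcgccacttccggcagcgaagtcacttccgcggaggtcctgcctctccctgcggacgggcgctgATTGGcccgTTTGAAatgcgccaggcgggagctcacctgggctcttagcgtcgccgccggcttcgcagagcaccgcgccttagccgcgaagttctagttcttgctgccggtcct
KIF2C: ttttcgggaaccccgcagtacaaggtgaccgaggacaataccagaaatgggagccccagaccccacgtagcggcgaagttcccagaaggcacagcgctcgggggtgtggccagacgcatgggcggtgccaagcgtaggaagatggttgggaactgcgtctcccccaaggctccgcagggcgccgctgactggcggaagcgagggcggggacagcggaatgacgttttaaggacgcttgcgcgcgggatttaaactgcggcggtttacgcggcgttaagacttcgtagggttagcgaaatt
KIF20A: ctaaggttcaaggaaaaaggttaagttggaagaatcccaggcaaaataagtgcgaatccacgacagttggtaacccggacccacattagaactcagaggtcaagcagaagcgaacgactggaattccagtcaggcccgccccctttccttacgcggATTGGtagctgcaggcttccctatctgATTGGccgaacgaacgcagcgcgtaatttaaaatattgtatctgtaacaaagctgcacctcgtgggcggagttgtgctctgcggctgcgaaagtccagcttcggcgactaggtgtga
KIF1C: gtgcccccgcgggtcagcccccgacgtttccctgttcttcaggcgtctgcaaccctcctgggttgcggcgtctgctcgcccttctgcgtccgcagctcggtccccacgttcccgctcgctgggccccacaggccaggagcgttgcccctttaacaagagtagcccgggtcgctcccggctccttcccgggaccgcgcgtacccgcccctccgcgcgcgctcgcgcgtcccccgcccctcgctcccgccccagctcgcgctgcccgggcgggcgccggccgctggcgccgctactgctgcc
RefSeq starts can differ from the gene starts of GENCODE, which are used for gene coordinates below. The RefSeq start lies before the GENCODE start by 62 bases in KIF18B and 156 in KIF11. It lies after it by 152 bases in KIF18A, 103 in KIF23, 393 in KIF20A, 32 in KIF22, 19 in KIF2C and 2 in KIF1C. Positions counted from the GENCODE start would shift by these amounts. Counted from the RefSeq start, the CHR letters lay at -10 in KIF18A, 3 in KIF18B, -28 in KIF11, -27 in KIF22 and -55 in KIF23. CCAAT or its reverse lay before them at -45 in KIF18A, -55 and -32 in KIF18B, -53 in KIF11, -66 in KIF22 and -64 in KIF23. KIF20A held only the reverse of CCAAT, at -94 and -67, and the windows of KIF2C and KIF1C held neither motif. A match in these windows was not tested for function.

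Of the 42 kinesins, 36 had enough counts to be tested. The other 6 were at or near 0: KIF19 and KIF2B had no counts, KIF1A had 5 and KIF12 had 12 counts in shPRMT6 replicate 2 alone, KIF25 had 3 in NC replicate 1, and KIF26A had 4 in NC replicate 1 and 4 in shPRMT6 replicate 3. Among the tested members, 11 fell (9.06% of all tested genes fell) and 4 rose (9.51% of all tested genes rose) in shPRMT6. The median log2 fold change was -0.25 over the 36 members and -0.01 over all tested genes. Values of NC and shPRMT6 did not overlap in 15 members that were lower and 7 that were higher, where all tested genes gave 19.9% and 20.3%. With 3 libraries against 3, an exact two-sided permutation test of a single gene cannot go below 0.1. The study's methods ask for a change past 1 on the log2 scale in either direction with p under 0.05. By that threshold, with unadjusted p, 2 members were lower, KIF2C and KIF18B (2.63% of all tested genes were lower by it), and 1 was higher, KIF6 (3.29% of all tested genes were higher by it).

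The decreases lay with the mitotic motors. Of the 15 mitotic kinesins 14 were tested, 9 of them fell and none rose, with a median log2 fold change of -0.75 and a range from -1.07 to -0.17. Of the 17 transport kinesins 16 were tested, 1 fell (KIF5C) and 3 rose (KIF1C, KIF13A and KIF16B), with a median of 0.07. Over all tested genes 9.06% fell and 9.51% rose, and these shares also stand beside the counts of each group below. No test was made between the classes, since genes are not replicates, and members were sorted into classes with earlier results of these data known. In bulk RNA, fewer cells in mitosis and less kinesin RNA in each cell cannot be told apart.

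**Figure D1:**
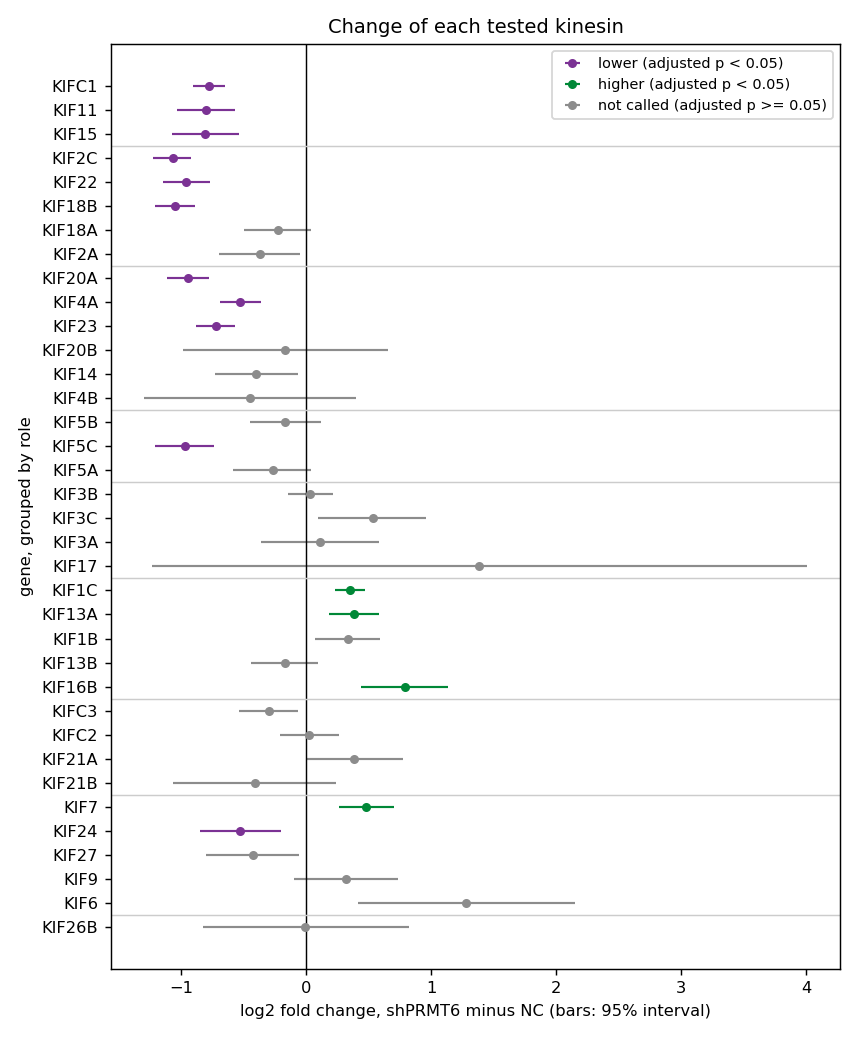
Log2 fold change of each of the 36 tested kinesins, shPRMT6 minus NC (horizontal axis; points are estimates, bars 95% intervals from edgeR), grouped by role from spindle assembly at the top to other members at the bottom. All 14 tested mitotic kinesins (the first 3 groups) lie below 0, and 9 of them passed an adjusted p of 0.05.

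The makeup of the kinesin RNA shifted from mitotic to transport motors. FPKM, which is scaled to transcript length, was summed over members for this comparison. The sum over the mitotic kinesins was 164, 172 and 164 in NC against 95.3, 99.3 and 98.6 in shPRMT6. The transport sum was 123, 146 and 135 in NC and 147, 145 and 147 in shPRMT6, so that NC replicate 2 lay among the shPRMT6 libraries. Mitotic motors thus made up 53.4% ± 1.6 (SD, n = 3) of the summed FPKM of all kinesins in NC and 38% ± 0.674 in shPRMT6. Transport motors made up 43.1% ± 1.44 and 56.8% ± 0.552. The sum over all 42 kinesins was 312 ± 16.6 in NC and 257 ± 1.82 in shPRMT6. In NC the mitotic class was the larger in every library, and in shPRMT6 the transport class was. These sums are levels and were not tested.

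**Figure D2:**
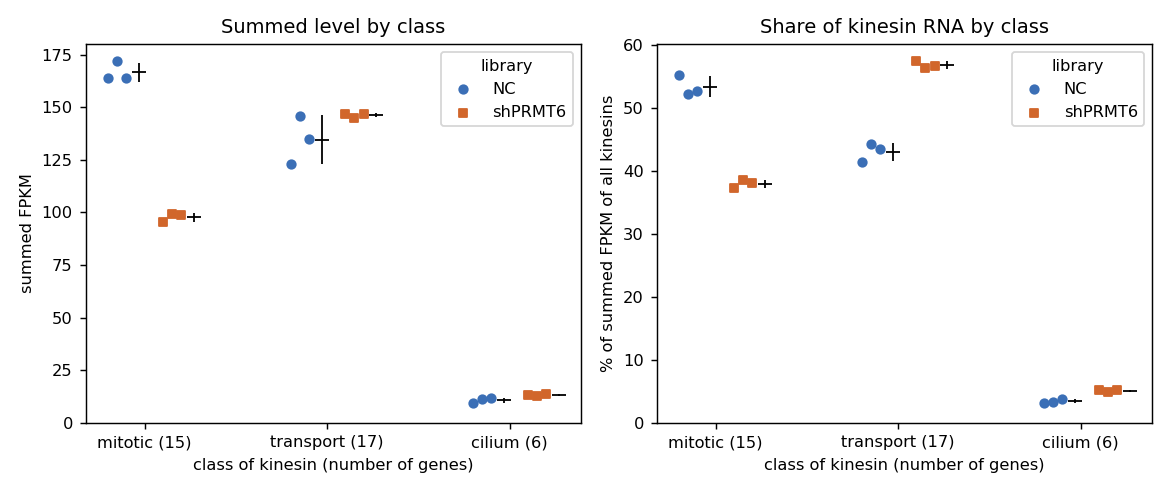
Summed FPKM (left) and percent of the summed FPKM of all kinesins (right) for mitotic, transport and cilium kinesins, with 1 point for each library and the mean ± SD of 3 libraries beside them in black. The mitotic share is 52.3% to 55.3% in NC and 37.3% to 38.6% in shPRMT6, and the transport share is 41.5% to 44.3% and 56.4% to 57.5%.

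All 3 motors of spindle assembly fell. KIFC1, a minus-end motor that bundles spindle poles and clusters extra centrosomes, was among the most abundant kinesins, at 26.9, 27.3 and 26.5 FPKM in NC and 15.7, 16.0 and 15.5 in shPRMT6. KIF11 (Eg5), which slides microtubules apart so that the spindle becomes bipolar, had 12.6, 15.2 and 13.2 FPKM in NC and 7.16, 8.09 and 8.36 in shPRMT6. KIF15, which can help KIF11 in that role, had 5.86, 7.80 and 6.86 FPKM in NC and 3.88, 3.9 and 4 in shPRMT6. The lowest NC library lay above the highest shPRMT6 library for each. The log2 fold change was -0.78 for KIFC1 (SE 0.0556, adjusted p = 0.000728), -0.80 for KIF11 (SE 0.0975, adjusted p = 0.00329) and -0.81 for KIF15 (SE 0.112, adjusted p = 0.00519), or 58.2%, 57.2% and 57.1% of the NC level. KIF11 stood at 2.01 ± 0.129 (SD, n = 3) times the FPKM of KIF15 in NC and 2 ± 0.137 in shPRMT6, so the balance of these motors differed by less than the spread between libraries.

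Among motors that align chromosomes and trim microtubule ends, 3 of the 5 tested fell. KIF2C (MCAK, ENSG00000142945, at chr1:44739818-44767767 on the plus strand), which shortens microtubules and frees wrongly attached chromosomes, had 27.6, 25.7 and 27.2 FPKM in NC and 12.9, 13.3 and 12.3 in shPRMT6. KIF18B (ENSG00000186185, at chr17:44924709-44947711 on the minus strand), which works with KIF2C at the ends of astral microtubules, had 11.1, 10.6 and 10.6 FPKM in NC and 5.16, 5.38 and 5.16 in shPRMT6. KIF22 (Kid), which pushes chromosome arms away from the poles, had 18.6, 16.1 and 17.6 FPKM in NC and 8.86, 9.42 and 8.73 in shPRMT6. No shPRMT6 library of these came near an NC library. The log2 fold change was -1.07 for KIF2C (SE 0.0636, adjusted p = 0.00045), -1.05 for KIF18B (SE 0.0672, adjusted p = 0.00051) and -0.96 for KIF22 (SE 0.0798, adjusted p = 0.00114). Exons of KIF2C, KIF22, KIF18A, KIF20A, KIF23, KIF4A, KIFC1, KIF1C, KIFC2, KIFC3, KIF9, KIF13B, KIF27 and KIF3A overlap those of genes on the opposite strand, and whether counting used strand is not given in the sources used here.

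Their close relatives KIF18A and KIF2A did not pass. KIF18A, which damps the movements of chromosomes at the spindle equator, had 6.78, 8.49 and 6.89 FPKM in NC and 5.90, 6.72 and 6.36 in shPRMT6. The groups came close without overlapping, and the log2 fold change was -0.23 (95% interval from -0.50 to 0.04, adjusted p = 0.21). The ratio of KIF18B to KIF18A in FPKM was 1.64, 1.25 and 1.54 in NC and 0.875, 0.8 and 0.811 in shPRMT6, so KIF18B was the higher of the pair in every NC library and the lower in every shPRMT6 library. Both hold the CHR letters and CCAAT in the windows printed above. KIF2A, which shortens microtubules at the spindle poles, had 4.82, 5.84 and 4.92 FPKM in NC and 3.53, 4.77 and 3.78 in shPRMT6 (log2 fold change of -0.37, 95% interval from -0.70 to -0.05, adjusted p = 0.108), and it passed without shPRMT6 replicate 2 (-0.51, adjusted p = 0.0475). KIF2A shares 7.09% of its 75-base stretches with any other gene, most of all with IPO11, which overlaps it on the same strand, so its counts are uncertain. The ratio of KIF2C to KIF2A was 5.22 ± 0.714 (SD, n = 3) in NC and 3.23 ± 0.431 in shPRMT6. The third member of that trio, KIF2B, had no counts.

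Of the 6 motors of the central spindle and cytokinesis, 3 fell. KIF20A (MKLP2), which brings Aurora B kinase to the central spindle, had 18, 17.5 and 17.7 FPKM in NC and 8.93, 8.75 and 9.98 in shPRMT6. KIF23 (MKLP1), the motor of the centralspindlin complex, had 10.3, 11.1 and 10.5 FPKM in NC and 6.15, 6.58 and 6.71 in shPRMT6. KIF4A, which with PRC1 sets the length of the central spindle, had 16.6, 18.5 and 16.6 FPKM in NC and 12.2, 11.8 and 12.1 in shPRMT6. The groups were apart for all of them. The log2 fold change was -0.95 for KIF20A (SE 0.0724, adjusted p = 0.00088), -0.72 for KIF23 (SE 0.0655, adjusted p = 0.00144) and -0.53 for KIF4A (SE 0.0681, adjusted p = 0.00413), so KIF4A had the smallest change among the mitotic members that fell.

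KIF20B, KIF14 and KIF4B, of the same role, did not pass. KIF20B, a motor of late cytokinesis, had 1.87, 4.79 and 2.29 FPKM in NC and 2.60, 2.41 and 3.01 in shPRMT6. NC replicate 2 stood above every other library and the remaining NC libraries lay below all shPRMT6 libraries. Its log2 difference between the groups came to -0.17 (SE 0.344, adjusted p = 0.784) with all libraries and to 0.35 (adjusted p = 0.155) without NC replicate 2. KIF14, which recruits citron kinase to the midbody, had a log2 fold change of -0.40 (adjusted p = 0.0923), and -0.52 without NC replicate 1 (adjusted p = 0.0389). KIF4B, a near copy of KIF4A, was at 0.161, 0.209 and 0.0982 FPKM in NC and 0.123, 0.104 and 0.116 in shPRMT6, overlapping groups (log2 fold change of -0.45, adjusted p = 0.437). KIF4B shares 4.53% of its 75-base stretches with any other gene, most of all with KIF4A, which was more abundant, so its low counts are uncertain.

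**Figure D3:**
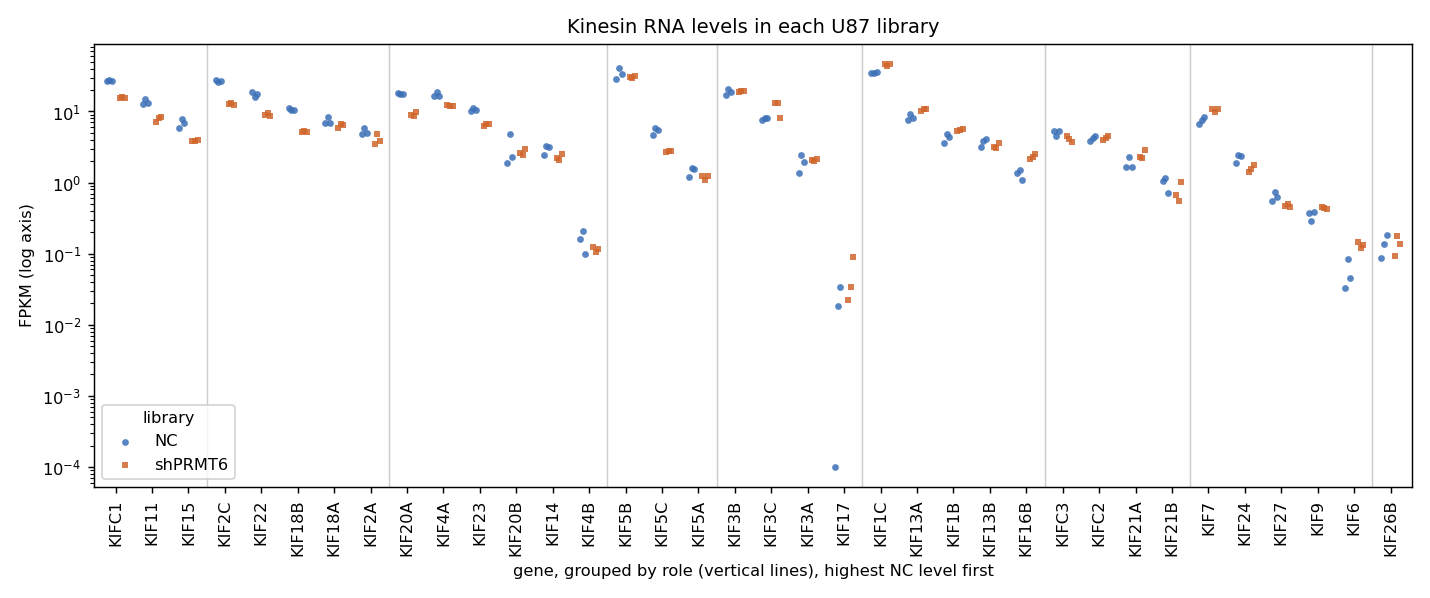
FPKM of each tested kinesin in each library (log axis; circles NC, squares shPRMT6), grouped by role as in the plot of changes, with the highest NC level first in each group. KIF1C and KIF5B lead the family, the 9 mitotic kinesins that fell have their squares below their circles, and the point of KIF17 at 1e-04 FPKM is a library without counts.

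The partners of mitotic kinesins, a list of 14 spindle proteins that are no KIF genes, showed 11 falls and no rise (9.06% of all tested genes fell and 9.51% rose), with a median log2 fold change of -0.78. NUSAP1, which bundles spindle microtubules, had a log2 fold change of -1.01 (adjusted p = 0.000322). TPX2, a spindle assembly factor, had -0.79 (adjusted p = 0.000357), CDCA8, which sits in the Aurora B complex, had -0.79 (adjusted p = 0.00118), and RACGAP1, which forms centralspindlin with KIF23, had -0.83 (adjusted p = 0.0017). CENPE, itself a kinesin of chromosome alignment, had 1.06, 3.00 and 1.15 FPKM in NC and 1.55, 1.78 and 1.58 in shPRMT6 (log2 fold change of -0.09, adjusted p = 0.898), with NC replicate 2 high as for KIF20B.

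Among transport motors, KIF1C and KIF5B were the most abundant. KIF1C, which carries vesicles and RNA to the cell edge, had 34.6, 35.3 and 36.2 FPKM in NC and 46.3, 43.6 and 46.1 in shPRMT6. KIF5B, the widely expressed heavy chain of conventional kinesin, had 29, 40.6 and 33.6 FPKM in NC and 30.4, 30.0 and 32.0 in shPRMT6. In NC the mean FPKM of KIF1C (35.4 ± 0.793, SD, n = 3) and KIF5B (34.4 ± 5.83) differed by less than the spread between libraries, and in shPRMT6 KIF1C (45.3 ± 1.49) stood above KIF5B (30.8 ± 1.07). KIF1C rose with a log2 fold change of 0.35 (SE 0.049, adjusted p = 0.00538), and KIF5B had -0.17 (95% interval from -0.45 to 0.12, adjusted p = 0.385; -0.26, adjusted p = 0.0423 with offsets for GC content and transcript length). KIF3B, next in the class, was at 17.2, 20.6 and 18.7 FPKM in NC and 18.8, 19.5 and 19.5 in shPRMT6, with groups that overlapped and a log2 fold change of 0.03 (adjusted p = 0.849).

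KIF5C was the transport motor that fell. KIF5C, a heavy chain known mainly from neurons, had 4.66, 5.91 and 5.53 FPKM in NC and 2.71, 2.74 and 2.80 in shPRMT6, and its groups did not overlap. It fell to 51.0% of the NC level (log2 fold change of -0.97, SE 0.0974, adjusted p = 0.00187). The ratio of KIF5C to KIF5B was 0.161, 0.146 and 0.165 in NC and 0.0892, 0.0914 and 0.0874 in shPRMT6. KIF5A, the other heavy chain known from neurons, had 1.18, 1.59 and 1.54 FPKM in NC and 1.24, 1.10 and 1.24 in shPRMT6 (log2 fold change of -0.27, adjusted p = 0.207), with overlapping groups.

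Of the 5 tested members of the kinesin-3 group, motors of endosomes and vesicles, 3 rose (9.51% of all tested genes rose). KIF16B, which moves early endosomes, had 1.38, 1.52 and 1.10 FPKM in NC and 2.14, 2.26 and 2.55 in shPRMT6. KIF13A, a motor of recycling endosomes, had 7.51, 9.10 and 7.99 FPKM in NC and 10.3, 11 and 11 in shPRMT6. Neither gene overlapped between the groups. The log2 fold change was 0.79 for KIF16B (SE 0.146, adjusted p = 0.0137) and 0.38 for KIF13A (SE 0.0826, adjusted p = 0.0234). KIF16B no longer passed without shPRMT6 replicate 3 (0.72, adjusted p = 0.0528). KIF13A passed only without NC replicate 2 among the fits that left out a library (adjusted p = 0.00842), and in the other 5 its adjusted p was from 0.0538 without NC replicate 1 to 0.0841 without shPRMT6 replicate 2.

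The remaining kinesin-3 motors did not pass. KIF13B, related to KIF13A, had 3.16, 3.8 and 4.09 FPKM in NC and 3.20, 3.07 and 3.57 in shPRMT6, overlapping groups with a log2 fold change of -0.17 (adjusted p = 0.331). The ratio of KIF13A to KIF13B was 2.24 ± 0.251 (SD, n = 3) in NC and 3.28 ± 0.252 in shPRMT6. KIF1B, a motor of mitochondria and vesicles, had 3.61, 4.87 and 4.44 FPKM in NC and 5.25, 5.41 and 5.69 in shPRMT6 (log2 fold change of 0.33, adjusted p = 0.0848), and passed without NC replicate 2 (0.43, adjusted p = 0.0371). The ratio of KIF1C to KIF1B was 8.33 ± 1.18 in NC and 8.33 ± 0.427 in shPRMT6.

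**Figure D4:**
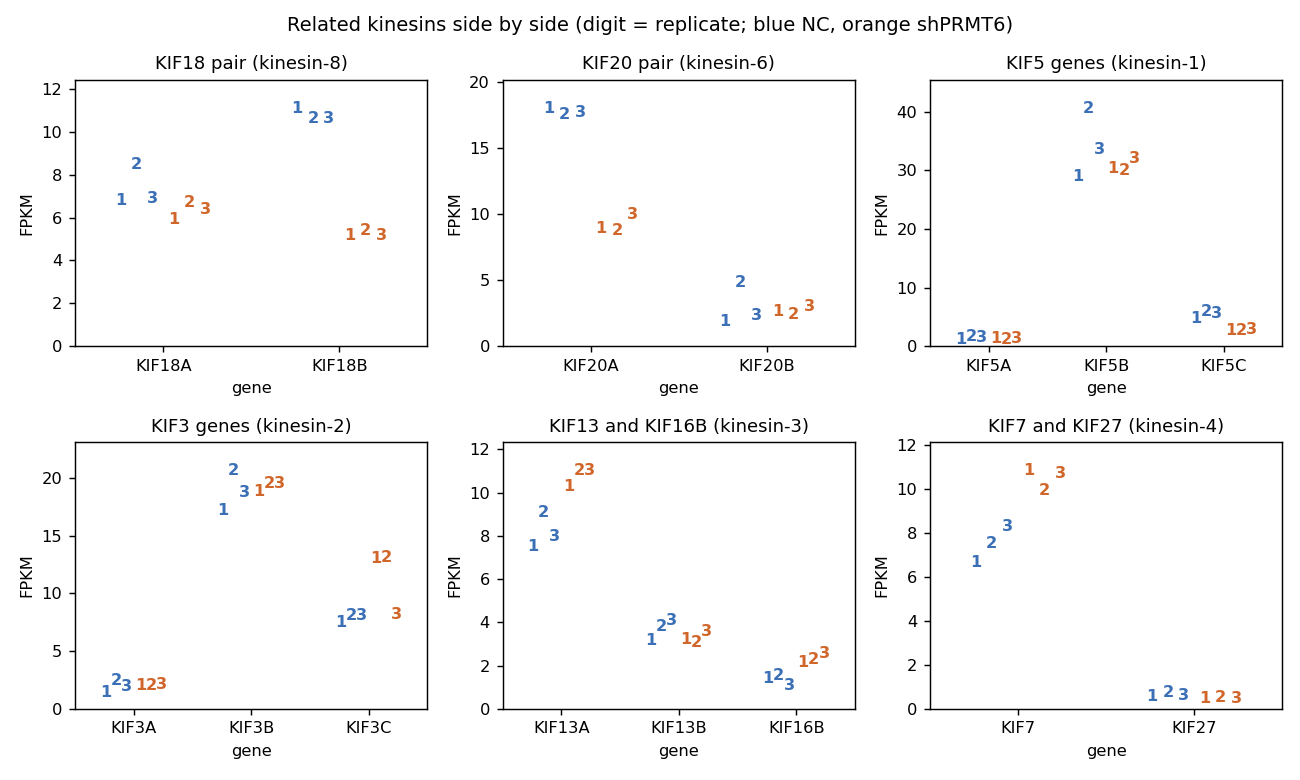
FPKM of related kinesins side by side in 6 panels, with 1 digit for each library (the digit is the replicate number; blue NC, orange shPRMT6). KIF18B, KIF20A and KIF5C are lower in every shPRMT6 library while their relatives KIF18A, KIF20B and KIF5B lie closer to or among the NC values; KIF20B is high in NC replicate 2, and KIF3C is high in shPRMT6 replicates 1 and 2.

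None of the 4 motors of the kinesin-2 group passed. KIF3C, which can replace KIF3B beside KIF3A, had 7.47, 8.09 and 8.06 FPKM in NC and 13.0, 13.1 and 8.13 in shPRMT6. A pair of shPRMT6 libraries was high and shPRMT6 replicate 3 lay at the NC level, which gave a log2 fold change of 0.53 (SE 0.182, adjusted p = 0.097) over all libraries and 0.72 (adjusted p = 0.00918) without it. KIF3A had 1.38, 2.44 and 1.92 FPKM in NC and 2.05, 2.02 and 2.14 in shPRMT6 (log2 fold change of 0.11, adjusted p = 0.757). KIF17, with at most 33 counts in a library, could not be measured closely (95% interval of the log2 fold change from -1.24 to 4.01). Of the minus-end motors related to KIFC1, KIFC3 had 5.34, 4.56 and 5.23 FPKM in NC and 4.48, 4.09 and 3.75 in shPRMT6, lower in every library without passing (log2 fold change of -0.30, adjusted p = 0.0818). KIFC2 had 3.78, 4.17 and 4.58 FPKM in NC and 4.01, 4.27 and 4.51 in shPRMT6, and its groups overlapped (log2 fold change of 0.02, adjusted p = 0.905). KIF21A and KIF21B, which slow the growth of microtubules, had 0.38 (adjusted p = 0.153; 0.55, adjusted p = 0.0429 without NC replicate 2) and -0.41 (adjusted p = 0.353).

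Partners of the transport motors were also measured. Of 18 kinesin subunits and adaptors, 17 were tested, 3 rose and 1 fell (9.51% and 9.06% of all tested genes), with a median log2 fold change of 0.06. KIFAP3, the subunit that joins KIF3A and KIF3B to cargo, rose by 0.52 on the log2 scale (adjusted p = 0.00569). TRAK2, which links kinesin to mitochondria, rose by 0.55 (adjusted p = 0.00873). KLC2, a light chain of conventional kinesin, fell by 0.27 (adjusted p = 0.0233).

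Dynein, the motor that walks the other way, was set beside the kinesins as a list of 26 subunits and regulators. Of these 5 rose and none fell (9.51% and 9.06% of all tested genes), with a median log2 fold change of 0.23. BICD2, an adaptor that couples dynein to cargo, had a log2 fold change of 0.67 (adjusted p = 0.00227). DYNLT3, a light chain, had 0.56 (adjusted p = 0.00341), DCTN1, the dynactin subunit that binds microtubules, had 0.32 (adjusted p = 0.00952), and DYNC1LI2, a light intermediate chain, had 0.45 (adjusted p = 0.0122). The heavy chain DYNC1H1 had -0.09 (adjusted p = 0.611).

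Among kinesins of the cilium, 1 rose and 1 fell of 5 tested (9.51% and 9.06% of all tested genes). KIF7, which regulates Hedgehog signalling at the tip of the cilium, had 6.64, 7.49 and 8.29 FPKM in NC and 10.8, 9.92 and 10.7 in shPRMT6. KIF24, which shortens microtubules at the centriole and holds back cilium formation, had 1.91, 2.48 and 2.40 FPKM in NC and 1.42, 1.57 and 1.75 in shPRMT6. Neither overlapped between groups. KIF7 rose with a log2 fold change of 0.48 (SE 0.0917, adjusted p = 0.0151), which no longer passed without shPRMT6 replicate 1 (adjusted p = 0.0591) or replicate 3 (adjusted p = 0.0563). KIF24 fell with a log2 fold change of -0.53 (SE 0.136, adjusted p = 0.0402) and, with a library left out, passed only without NC replicate 1 (adjusted p = 0.0283); in the other 5 fits its adjusted p was from 0.0683 without shPRMT6 replicate 3 to 0.124 without shPRMT6 replicate 1. Exons of both overlap those of a gene on the opposite strand, TICRR for KIF7 and UBAP1 for KIF24.

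The other cilium kinesins were low. KIF27, the closest relative of KIF7, was at 0.546, 0.738 and 0.623 FPKM in NC and 0.470, 0.501 and 0.449 in shPRMT6 (log2 fold change of -0.43, adjusted p = 0.104). It shares 16.5% of its 75-base stretches with any other gene. KIF6, known from motile cilia, had 27, 91 and 40 counts in NC and 132, 107 and 127 in shPRMT6. It had a log2 fold change of 1.28 (SE 0.364, adjusted p = 0.0543), and of 1.75 without NC replicate 2 (adjusted p = 0.014). KIF9, also of motile cilia, had 0.32 (adjusted p = 0.266), and KIF26B, which lies outside these classes, had -0.01 (adjusted p = 0.989).

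NC replicate 2, the deepest library, differed from the other NC libraries in many kinesins. It was the highest of the NC libraries in 24 of the 36 tested members (66.7%) and in 36.4% of all tested genes. Its excess moved with base composition: over the 36 members, the log2 ratio of NC replicate 2 to the mean of NC replicates 1 and 3 had a Spearman's rho of -0.69 (Pearson's r = -0.55) with the GC content of the transcript, across genes that share the same libraries. KIF20B, at 34.2% GC, stood 2.3 times as high in NC replicate 2, whereas KIF22, at 58.9% GC, stood at 0.887 times. Over the 14 mitotic kinesins the log2 fold change between the groups followed GC content, with larger falls at higher GC (Spearman's rho of -0.75, Pearson's r = -0.73). It did not over all 36 tested kinesins (Spearman's rho of 0.12, Pearson's r = 0.17) or over the 16 transport kinesins (-0.07 and 0.11). Among the mitotic kinesins the smaller changes were in AT-rich members such as KIF18A (37.0% GC) and KIF20B, though KIF11 (38.3% GC) fell by 0.80. The excess of NC replicate 2 was larger in AT-rich mitotic members (Spearman's rho of -0.84 with GC content), and a high NC library makes a fall larger, not smaller. Without NC replicate 2 the log2 fold change was -0.12 for KIF18A, 0.35 for KIF20B and -1.02 for KIF22. The cause of the relation to GC content was not tested. With offsets for GC content and transcript length, an alternative chosen after seeing the data, 12 mitotic kinesins were called lower, with KIF14 (-0.50, adjusted p = 0.0144), KIF18A (-0.30, adjusted p = 0.039) and KIF2A (-0.46, adjusted p = 0.0422) added. The same fit also called KIF5B (-0.26, adjusted p = 0.0423) and KIF27 (-0.53, adjusted p = 0.0341) lower, and KIF1B (0.28, adjusted p = 0.0375) and KIF6 (1.26, adjusted p = 0.0431) higher. KIF18B (-0.96), KIF2C (-1.07) and KIF22 (-0.85) still had larger falls than KIF18A in that fit.

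**Figure D5:**
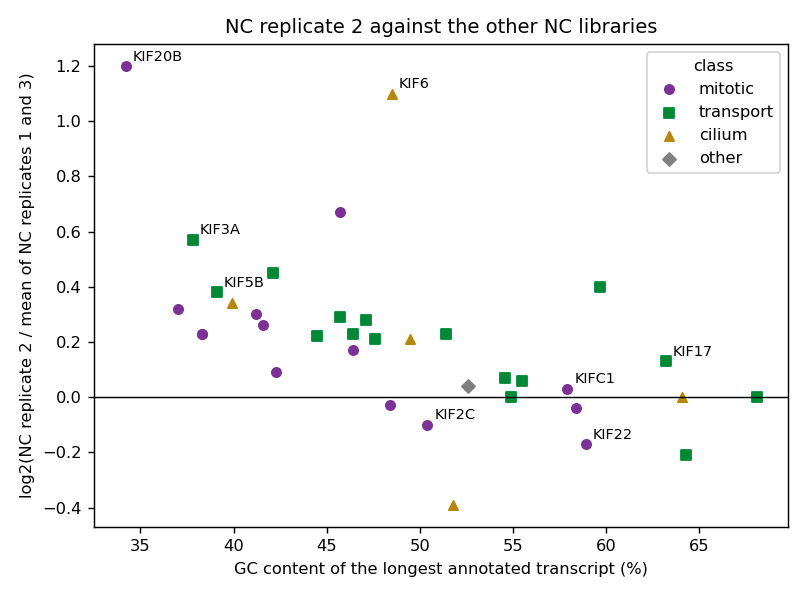
Log2 ratio of NC replicate 2 to the mean of NC replicates 1 and 3 (vertical axis) against the GC content of the longest annotated transcript (horizontal axis, percent) for the 36 tested kinesins, coloured by class. AT-rich members such as KIF20B, KIF3A and KIF5B lie above 0, and KIF6, with at most 91 counts in NC, stands apart.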

How the data were processed

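The series holds RNA-seq libraries of U87 cells, 3 NC and 3 shPRMT6, grouped by the labels, which name the NEBNext Ultra RNA kit. The authors deposited raw counts per gene and FPKM values for each library in 1 table, with 1e-04 FPKM entered for genes that had no counts. The submitters' processing notes name HISAT2, HTSeq 0.13.5 and GRCh38; the annotation release and the use of strand are not given in the sources used here. Of 60612 gene identifiers, 60401 were matched to a symbol.

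Counts were tested with edgeR 4.0.16 in R 4.3.3 (quasi-likelihood test, TMM scaling with factors from 0.992 to 1.01, default low-count filter by condition, Benjamini-Hochberg adjustment over 18106 genes). SE is the log2 fold change divided by the square root of its F statistic. FPKM served for levels between genes, with SD over 3 libraries. No replicate was a duplicate of another: the chi-square of a pair within a group, divided by its degrees of freedom, was at least 39.1 and at most 63.1.

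Values per library are given for members past an adjusted p of 0.05, for the 3 most abundant members of the mitotic and transport classes and for close relatives of a member that passed, and of each partner list the 4 genes with the smallest p are named; genes named outside this rule (CENPE, DYNC1H1) or given per library outside it (KIF3A, KIF3C, KIF6) were chosen after their values were seen, and the remaining members are given by their fold change. Some values under this rule are not reported here. The family followed from the name rule, whereas the roles, the members placed in each role and the partner lists were chosen with earlier results of these data known. Shared 75-base stretches, exon overlaps, transcript length and GC content came from GENCODE on GRCh38 with Python 3.11.15. Length and GC content are those of the longest transcript. Shared stretches were taken over all transcripts of a gene, and overlaps over all its exons. Alternatives were DESeq2 1.42.0, limma 3.58.1 on log2(FPKM + 1) and log2(FPKM + 0.1), other scaling and filters, stricter thresholds, a replicate block, each library left out, and offsets for GC content and length, the last chosen after seeing the data. The fits were tested on simulated counts with the spread of the real genes. In these the share of false calls was above the adjusted p threshold of 0.05 for limma and for edgeR, with and without the replicate block. It was far above that threshold for DESeq2. Far fewer genes were changed in the simulated counts than edgeR called in the real data. The share of false calls depends on how many genes change, so these shares do not carry over to the real calls. The edgeR fit stayed under the separate limit on false calls that was finally set for it. The limit on false calls was changed, and draws were added, after a first draw in which the block fit and DESeq2 went past it.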

Additional observations from a re-analysis of the deposited data

How the results depend on the processing

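No called kinesin changed direction under the alternatives tried, and the 9 mitotic kinesins, KIF5C and KIF1C passed in all 6 fits that left out a library. With a library left out, 10 to 12 kinesins were lower, 2 to 7 higher, 9 to 10 mitotic kinesins lower and 2 to 5 transport kinesins higher (against 11, 4, 9 and 3 with all libraries); the highest counts of higher members, 7 and 5, came without NC replicate 2, and the lowest count of higher members, 2, without shPRMT6 replicate 1 or 3. DESeq2 called 8 kinesins and 6 transport kinesins higher. Its share of false calls was far above the adjusted p threshold of 0.05 in simulated counts. Far fewer genes changed in those counts than edgeR called in the real data, so that share does not carry over to these calls. limma on log2(FPKM + 1) without a filter called 1 kinesin and 1 transport kinesin higher, 8 kinesins and 7 mitotic kinesins lower, and lost KIF11 (adjusted p = 0.0606), KIF15 (adjusted p = 0.0902), KIF24 (adjusted p = 0.304), KIF13A (adjusted p = 0.177), KIF16B (adjusted p = 0.122) and KIF7 (adjusted p = 0.146). An adjusted p under 0.01 left 1 kinesin and 1 transport kinesin higher, and the threshold of the methods left 2 kinesins lower, 2 mitotic kinesins lower, 1 kinesin higher and 0 transport kinesins higher. Offsets for GC content and length gave 16 lower and 6 higher. The causes of these shifts were not tested. The replicate numbers did not pair the libraries (correlations of same-numbered deviations of -0.0248, -0.0171 and -0.0301); with the replicate block, 11 kinesins were lower, 3 higher, 10 mitotic kinesins lower and 2 transport kinesins higher, with KIF24 (adjusted p = 0.0525) and KIF16B (adjusted p = 0.0556) lost and KIF2A (adjusted p = 0.0443) gained. Members that did not pass and changed sign were KIF20B (from -0.41 without NC replicate 1 to 0.35 without NC replicate 2), KIF3A (from -0.08 without NC replicate 1 to 0.32 without NC replicate 2), KIF3B (from -0.03 without NC replicate 1 to 0.1 without NC replicate 2, -0.02 with the offsets), KIFC2 (from -0.04 without NC replicate 1, with -0.02 without shPRMT6 replicate 3, to 0.08 without NC replicate 3, and 0.2 with the offsets) and KIF26B (0 in limma without a filter and without NC replicate 2, from -0.26 without shPRMT6 replicate 2 to 0.24 without NC replicate 3, 0.21 without shPRMT6 replicate 1, 0.01 with the offsets). Of 561 values for single members, 505 kept their direction and side of the threshold, 22 lost the call, 23 gained it and 11 changed sign. KIF17 had at most 33 counts in a library.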
